A study of Homo sapiens with 6 samples.

Results

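Transcripts of 8 genes of the PI3K and AKT signalling unit were followed in MDA-MB-231BR cells with and without an shRNA against ACSS2. The 8 are PIK3IP1, PIK3CA, PIK3CB, PIK3R1, PIK3R2, PIK3R3, AKT1 and AKT2, taken by symbol from a table of 17721 genes, and all 8 were among the 13003 genes with enough counts to test. MDA-MB-231BR cells descend from MDA-MB-231, a human line of breast cancer, and home to the brain. The ACSS2 shRNA group (genotype ACSS2 knockdown) and the control shRNA group had 3 libraries each, numbered 1 to 3 in both, and the labels call them biological replicates. Cells of both groups had been transduced with lentivirus, selected with antibiotic and grown as monocultures in medium with serum, so virus and selection are shared by all 6 libraries. The labels do not give the number of hairpin sequences, nor whether the numbers 1 to 3 stand for cultures of 1 hairpin or for different hairpins, so p-values measure only the spread between these libraries. In bulk RNA, fewer cells with a transcript and less of it per cell cannot be told apart.

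Class I PI3K is a lipid kinase that phosphorylates the membrane lipid PIP2 to PIP3 when growth factor receptors are engaged. A class IA enzyme pairs a catalytic p110 subunit (PIK3CA, PIK3CB or PIK3CD) with a regulatory p85 or p55 subunit (PIK3R1, PIK3R2 or PIK3R3) that both stabilises and restrains it. PIP3 recruits the kinases AKT1 and AKT2 to the membrane, where they act on survival, glucose use and protein synthesis, and among their substrates are the FOXO transcription factors, which AKT keeps out of the nucleus. PIK3IP1 is a transmembrane protein that binds p110 and dampens it, and the pathway is among the most often mutated in breast cancer.

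Of the markers of the line, VIM lay between 5449 and 6820 TPM (transcript abundance scaled by length and library) in all libraries. CD44, KRT18, KRT8, EGFR and AXL lay at 107.9 TPM or above. Among the markers looked for as low, CDH1 reached 0.05 TPM, PGR 0.24, ESR1 1.21 and GATA3 3.66. ERBB2, looked for as low too, lay between 26.5 and 42.9 TPM. Of 12 markers of leukocytes, endothelium, fibroblasts, neurons and glia, 11 were listed, and their summed level was 60.2 to 92.1 TPM with ACSS2 shRNA and 54.0 to 103 TPM with control shRNA, most of it MBP (30.8 to 73.6 TPM). Of the others RBFOX3 reached 21.3 TPM, COL1A1 17.99, CD14 6.86, PECAM1 4.10, CDH5 3.23 and PDGFRB 1.43, while PTPRC, CD3E, DCN and GFAP stayed at or below 0.32 TPM, and the part of such cells in the results was not tested. Library totals lay between 15048275 and 18608104 counts. ACSS2 itself, the enzyme that makes acetyl-CoA from acetate, had 11.1, 50.5 and 88.7 CPM in ACSS2 shRNA libraries 1, 2 and 3, against 76.3, 71.2 and 163.6 CPM in control shRNA libraries 1, 2 and 3. CPM are counts scaled by library size and TMM factors. The groups overlapped, since ACSS2 shRNA library 3 lay above control libraries 1 and 2, while within each number the ACSS2 shRNA library was the lower one, by log2 differences of -2.76, -0.49 and -0.88.

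Because the members were chosen with the contrast between the groups known, their differences in that contrast are given as descriptions. Every fold change sets ACSS2 shRNA over control shRNA and, unless another source is named, comes from edgeR's quasi-likelihood fit. The fit was run once without a replicate term and once with the replicate number as a block, which compares libraries of the same number. Differences and ratios within numbers come instead from log2 CPM with a prior count of 2, which narrows the ratios of low counts. With a Benjamini-Hochberg adjusted p under 0.05 over all genes, 0 of the 8 members were called without the block, where 0.0692% of all genes tested were called. At an unadjusted p under 0.05 the fit without the block held 1 of the 8 members (PIK3IP1) and 1820 of all genes. DESeq2 without a block called 1 member (PIK3IP1) and 3.76% of all genes. With the block, 3 of the 8 were called, all higher (PIK3IP1, PIK3CB and PIK3R3), where 25.1% of all genes were called and 12.7% were called higher. When replicate number 1, 2 or 3 was left out, the fit with the block called 1, 2 and 2 members and 21.1%, 12.1% and 23.8% of all genes, PIK3IP1 each time, PIK3R3 without number 2 or 3, and PIK3CB in none. The groups did not overlap for 2 members, PIK3IP1 and PIK3CB, both higher, as for 10.7% of all genes. The median log2 fold change over all genes was 0.02 in both fits.

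PIK3IP1, the inhibitor of p110, was the member with the greatest difference. Its level was 18.7, 16.8 and 16.3 CPM in ACSS2 shRNA libraries 1, 2 and 3, against 4.21, 1.94 and 4.00 CPM in control shRNA libraries 1, 2 and 3. Every ACSS2 shRNA library was above every control library, and the ACSS2 shRNA libraries lay close together while control library 2 was the lowest of all. The means were 17.3 ± 1.25 CPM with ACSS2 shRNA and 3.39 ± 1.26 CPM with control shRNA (SD, n = 3 each). The log2 fold change was 2.35 (SE 0.32) without the block and 2.39 (SE 0.21) with it, which is 5.23-fold. Within numbers 1, 2 and 3 the ACSS2 shRNA library was 4.34-fold, 8.24-fold and 3.99-fold higher. The widest of these ratios belongs to number 2, where the control count was 34, against 74 and 62 in control libraries 1 and 3, while ACSS2 shRNA libraries 1, 2 and 3 had 336, 268 and 263 counts. ACSS2 differed least in that same number. Of the 10695 genes that averaged 5 CPM or more, PIK3IP1 ranked 5 by positive log2 fold change with the block. In the authors' deposited table its log2 fold change is 2.32.

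**Figure D1:**
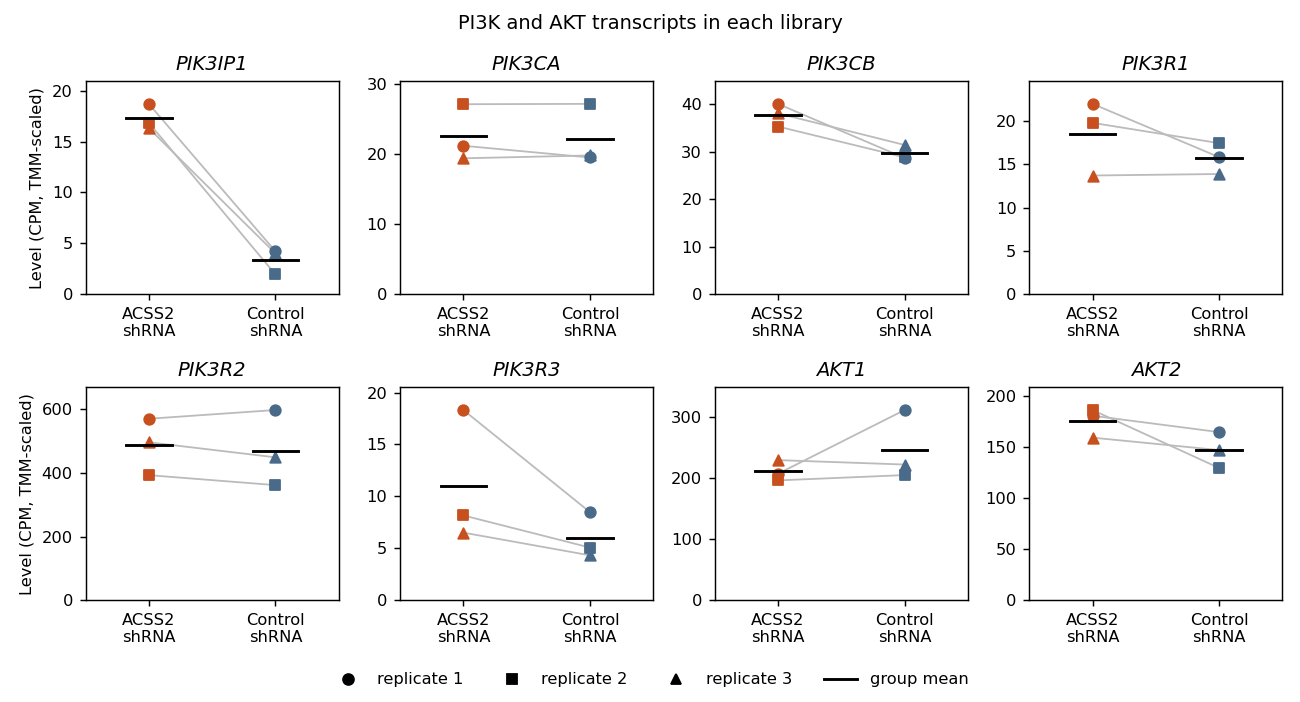
Level of each of the 8 genes (CPM scaled with TMM factors, axes from 0) in ACSS2 shRNA libraries on the left and control shRNA libraries on the right of each panel; points are libraries, their shape is the replicate number, grey lines join libraries of the same number and black bars are group means. PIK3IP1 lay between 16.3 and 18.7 CPM with ACSS2 shRNA and between 1.94 and 4.21 CPM with control shRNA, while the groups overlapped for 6 of the 8 genes.

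PIK3IP1 lies on the minus strand of chr22:31281593-31292534 (GRCh38.p14). Because FOXO factors are substrates of AKT, promoters were searched on both strands for TGTTTAC (reverse complement GTAAACA), a word at the core of forkhead binding sites. The search covered 300-base windows around each start site that RefSeq annotates on GRCh38.p14, and all 8 members matched by symbol. A match was found for 2 of the 8, PIK3IP1 and PIK3CA, and for 3.49% of tested genes with a promoter (366 of 10493). Both windows are shown 5′ to 3′ because they belong to the member that differed most and to one that hardly differed, with the word in capitals. The PIK3IP1 window is chr22:31292439-31292738, minus strand, 1 of the windows annotated for this gene, and the word begins at position 17 counted from its start site. The other PIK3IP1 window, chr22:31292485-31292784, belongs to the start site at the 5′ end of the gene span and held 0 matches. The PIK3CA window is chr3:179148107-179148406, plus strand, and the word begins at position -149.
PIK3IP1: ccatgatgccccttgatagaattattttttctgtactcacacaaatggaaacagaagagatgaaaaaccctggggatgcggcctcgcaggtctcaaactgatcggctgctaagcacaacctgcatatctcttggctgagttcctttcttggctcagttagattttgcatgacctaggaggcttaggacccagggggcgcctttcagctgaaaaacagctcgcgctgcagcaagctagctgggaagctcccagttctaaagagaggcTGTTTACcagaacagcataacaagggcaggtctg
PIK3CA: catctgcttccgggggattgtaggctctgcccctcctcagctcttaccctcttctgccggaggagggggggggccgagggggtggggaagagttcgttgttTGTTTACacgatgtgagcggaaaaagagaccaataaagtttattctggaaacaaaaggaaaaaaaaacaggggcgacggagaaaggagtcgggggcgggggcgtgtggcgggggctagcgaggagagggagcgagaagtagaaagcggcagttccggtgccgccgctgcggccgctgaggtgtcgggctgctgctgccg
A match is a description of these letters and does not show that a factor binds there.

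Of the catalytic subunits, PIK3CB was higher with ACSS2 shRNA, without overlap, and the groups of PIK3CA overlapped. PIK3CB encodes p110β, which can be driven by G protein-coupled as well as tyrosine kinase receptors. It had 40.03, 35.3 and 38.03 CPM in ACSS2 shRNA libraries 1, 2 and 3, against 28.6, 28.8 and 31.4 CPM in control shRNA libraries 1, 2 and 3. The groups did not overlap, with the lowest ACSS2 shRNA library above the highest control library. Means were 37.8 ± 2.39 CPM with ACSS2 shRNA and 29.6 ± 1.54 CPM with control shRNA, and the log2 fold change was 0.35 without the block (SE 0.16) and with it (SE 0.12), or 1.28-fold. Its log2 differences within numbers 1, 2 and 3 were 0.48, 0.29 and 0.28, all in the same direction. The gene lies at chr3:138652698-138834928. The deposited span of its row is 1.54 times as long and overlaps CEP70 and FAIM, which are listed too, so its level is uncertain to that extent.

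PIK3CA encodes p110α, the catalytic subunit most often mutated in breast cancer. It had 21.2, 27.1 and 19.4 CPM in ACSS2 shRNA libraries 1, 2 and 3, against 19.5, 27.2 and 19.8 CPM in control shRNA libraries 1, 2 and 3. The groups lay on top of each other, and library 2 was the highest in both. The log2 fold change was 0.03 with and without the block (SE 0.13 and 0.22), a value below its SE in both fits. A partial pseudogene nearly identical to PIK3CA exists elsewhere in the genome, and the deposited estimates do not say how reads were divided, so its level is uncertain to that extent. PIK3CA spans chr3:179148126-179240093 and overlaps KCNMB3.

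PIK3CD, the p110δ subunit best known from leukocytes, is outside the 8 genes and is given because the shares of the catalytic subunits include it. It had 40.1, 39.0 and 52.4 CPM in ACSS2 shRNA libraries 1, 2 and 3, against 71.5, 81.5 and 91.2 CPM in control shRNA libraries 1, 2 and 3. The groups did not overlap. It fell 1.87-fold with the block (log2 fold change -0.90, SE 0.11, edgeR adjusted p = 0.000234), and did not pass without it (-0.89, SE 0.18, adjusted p = 0.0991). Of the leukocyte markers CD14 lay between 0.89 and 6.86 TPM, PTPRC between 0.02 and 0.18 TPM and CD3E at or below 0.07 TPM over the libraries, and their part in this result was not tested. The deposited span of the PIK3CD row is 1.93 times that of RefSeq, so its level is uncertain to that extent.

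As a share of the summed TPM of PIK3CA, PIK3CB, PIK3CD and PIK3CG, PIK3CB made up 37.7%, 37.6% and 34.8% in ACSS2 shRNA libraries 1, 2 and 3, against 22.99%, 21.8% and 22.9% in control shRNA libraries 1, 2 and 3. The PIK3CA share averaged 15.8 ± 1.71% with ACSS2 shRNA and 12.1 ± 2.19% with control shRNA. PIK3CD made up 33.4%, 36.1% and 43.3% with ACSS2 shRNA, against 51.3%, 54.8% and 60.0% with control shRNA. PIK3CD thus held over 50% of the catalytic transcripts in every control library and in no ACSS2 shRNA library. The summed level of the 4 genes was 41.6 ± 2.41 TPM with ACSS2 shRNA and 48.9 ± 3.74 TPM with control shRNA. These shares rest on TPM, which depend on the transcript lengths the authors used. The deposited spans of the PIK3CD and PIK3CG rows are 1.93 and 1.85 times those of RefSeq. Genes that overlap these 2 spans were not looked up, so the shares are uncertain to that extent.

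**Figure D2:**
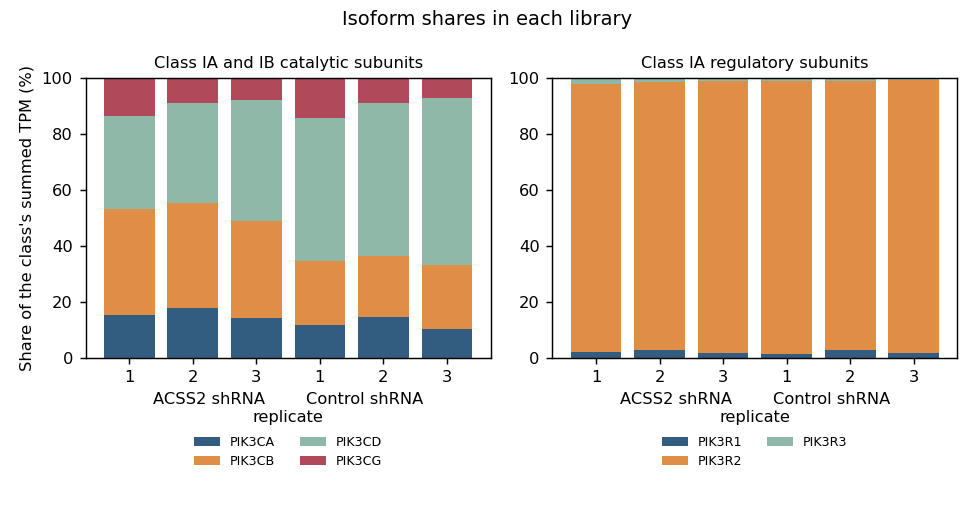
Share of each gene (stacked percent of the summed TPM of its class) in every library, ACSS2 shRNA on the left and control shRNA on the right, for catalytic and regulatory subunits. PIK3CB took 36.7 ± 1.63% of the catalytic class with ACSS2 shRNA and 22.6 ± 0.681% with control shRNA, and PIK3R2 took over 95% of the regulatory class in every library.

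Among the regulatory subunits, PIK3R3 had the greatest difference and the lowest mean TPM. It encodes p55γ, a short regulatory subunit, and had 18.3, 8.17 and 6.51 CPM in ACSS2 shRNA libraries 1, 2 and 3, against 8.49, 5.07 and 4.33 CPM in control shRNA libraries 1, 2 and 3. The groups overlapped, because control library 1 lay above ACSS2 shRNA libraries 2 and 3, while within each number the ACSS2 shRNA library was the higher one. The means were 11.0 ± 6.39 CPM with ACSS2 shRNA and 5.96 ± 2.22 CPM with control shRNA. The log2 fold change was 0.88 (SE 0.44) without the block and 0.82 (SE 0.18) with it, or 1.77-fold. Differences within numbers 1, 2 and 3 were 1.10, 0.67 and 0.58 on the log2 scale. Without ACSS2 shRNA library 1 the value without the block was 0.28, and without control library 1 it was 1.23. PIK3R3 lies at chr1:46040140-46174901, where RefSeq also annotates a readthrough transcript with P3R3URF, so reads of the 2 could not be separated here. The deposited span of the PIK3R3 row is 1.34 times as long and overlaps MAST2, which is listed too. MAST2 averaged 183 CPM with ACSS2 shRNA and 200 CPM with control shRNA. The part of its reads in the PIK3R3 row was not tested.

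PIK3R1 encodes p85α, the regulatory subunit that binds phosphorylated receptors and whose loss activates p110. Its level was 21.99, 19.8 and 13.7 CPM in ACSS2 shRNA libraries 1, 2 and 3, against 15.8, 17.4 and 13.9 CPM in control shRNA libraries 1, 2 and 3. The groups overlapped, and library 3 was the lowest in both. Its log2 fold change was 0.23 (SE 0.23) without the block and 0.22 (SE 0.14) with it, and the differences within numbers were 0.47, 0.18 and -0.02. The value without the block was 0.08 without ACSS2 shRNA library 1, 0.16 without ACSS2 shRNA library 2, 0.15 without control library 3 and 0.41 without ACSS2 shRNA library 3. The gene lies at chr5:68215756-68301821.

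PIK3R2, which encodes p85β, had the highest mean TPM of the 8. It had 569, 393 and 496 CPM in ACSS2 shRNA libraries 1, 2 and 3, against 597, 361 and 449 CPM in control shRNA libraries 1, 2 and 3. The groups overlapped fully, with library 1 the highest and library 2 the lowest in both. The log2 fold change was 0.05 (SE 0.23) without the block and 0.07 (SE 0.12) with it, with differences of -0.07, 0.12 and 0.14 within numbers 1, 2 and 3. PIK3R2 made up 96.4 ± 1.00% of the regulatory TPM with ACSS2 shRNA and 97.2 ± 0.742% with control shRNA. PIK3R1 was 2.12 ± 0.598% of that sum with ACSS2 shRNA and 1.96 ± 0.686% with control shRNA. PIK3R3 was 1.49 ± 0.634% with ACSS2 shRNA and 0.863 ± 0.175% with control shRNA. RefSeq places PIK3R2 at chr19:18153163-18170532, but the deposited span of its row is 2.68 times as long and covers IFI30, MPV17L2 and RAB3A, which have rows of their own. The sources used here do not say how the authors divided reads there, so the high level of this row is uncertain.

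The groups overlapped for both AKT kinases. AKT1, the isoform tied to survival and growth, had 207, 196 and 229 CPM in ACSS2 shRNA libraries 1, 2 and 3, against 311, 205 and 222 CPM in control shRNA libraries 1, 2 and 3. Control library 1 stood above the other 5, and the rest overlapped. Means were 211 ± 16.9 CPM with ACSS2 shRNA and 246 ± 57.1 CPM with control shRNA, and the log2 fold change was -0.22 (SE 0.20) without the block and -0.20 (SE 0.14) with it. The differences within numbers 1, 2 and 3 were -0.59, -0.06 and 0.05, so number 1 held nearly all of the difference. Without control library 1 the value without the block was -0.02. AKT1 lies at chr14:104769349-104795748.

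AKT2, the isoform tied to insulin-stimulated glucose uptake, had 181, 187 and 159 CPM in ACSS2 shRNA libraries 1, 2 and 3, against 165, 129.7 and 147 CPM in control shRNA libraries 1, 2 and 3. The groups overlapped only in that ACSS2 shRNA library 3 lay below control library 1. Its log2 fold change was 0.25 (SE 0.16) without the block and 0.26 (SE 0.12) with it, and the differences within numbers were 0.13, 0.52 and 0.11. Without control library 2 the value without the block was 0.14, and without number 2 the value with the block was 0.09. AKT2 lies at chr19:40230317-40285345. The deposited span of its row is 2.96 times as long and overlaps TTC9B, CCNP, C19orf47 and PLD3, which are listed too. Its level is therefore uncertain in the same way as that of PIK3R2.

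**Figure D3:**
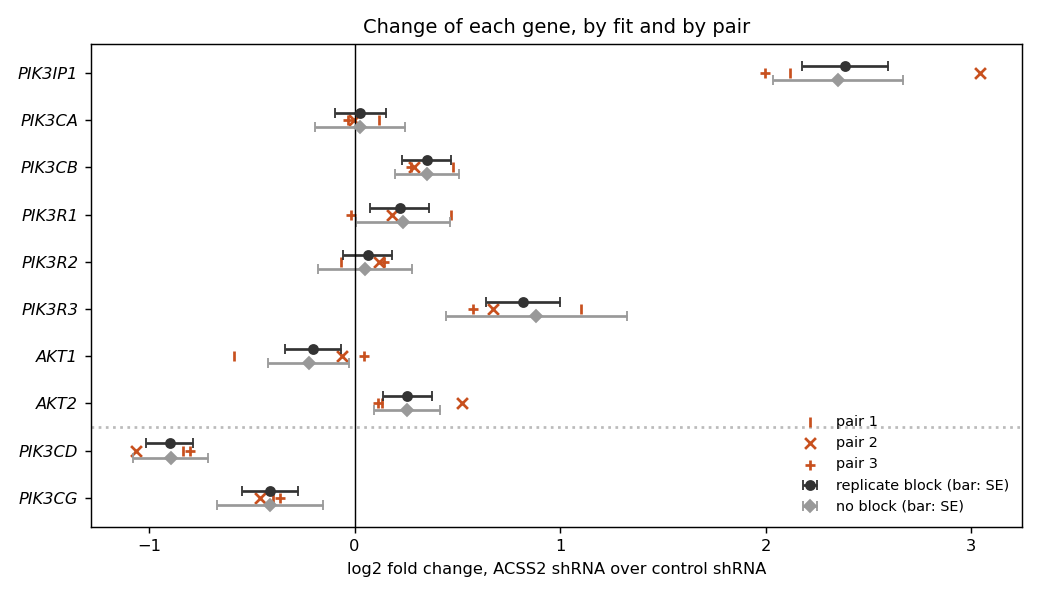
Log2 fold change, ACSS2 shRNA over control shRNA, for the 8 genes and, under the dotted line, 2 other class I catalytic subunits; dark circles are the fit with the replicate block and grey diamonds the fit without it, with bars of 1 SE, and orange marks are the differences within each number. PIK3IP1 stood at 2.39 and PIK3CD at -0.90 with the block, and the marks of PIK3CA lay between -0.03 and 0.12.

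Per transcript length, the order of the 8 levels was nearly the same in both groups apart from PIK3IP1. With ACSS2 shRNA the mean TPM were 231 ± 43.9 for PIK3R2, 143 ± 4.27 for AKT1, 74.5 ± 10.3 for AKT2, 15.3 ± 1.33 for PIK3CB, 13.3 ± 1.55 for PIK3IP1, 6.56 ± 0.683 for PIK3CA, 5.02 ± 1.36 for PIK3R1 and 3.71 ± 2.27 for PIK3R3. Ranges over the libraries overlapped between PIK3CB and PIK3IP1, between PIK3CA and PIK3R1 and between PIK3R1 and PIK3R3. With control shRNA the mean TPM were 205 ± 44.8 for PIK3R2, 154 ± 30.9 for AKT1, 57.7 ± 4.801 for AKT2, 11.02 ± 0.601 for PIK3CB, 5.97 ± 1.42 for PIK3CA, 3.97 ± 0.734 for PIK3R1, 2.40 ± 0.815 for PIK3IP1 and 1.84 ± 0.659 for PIK3R3. There the ranges overlapped between PIK3R2 and AKT1 and between PIK3IP1 and PIK3R3. PIK3IP1 thus ranked 5 of 8 with ACSS2 shRNA and 7 of 8 with control shRNA.

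The replicate number is a second axis along which the members varied. The members were chosen with earlier results of these data known, so these differences too are given as descriptions. In edgeR's fit with group and number, 3 of the 8 differed between numbers at an adjusted p under 0.05 over all genes, where 38.7% of all genes did. PIK3R3 followed the number most closely (adjusted p = 0.00150), with mean levels of 13.4, 6.62 and 5.42 CPM for numbers 1, 2 and 3. PIK3R2 averaged 583, 377 and 472 CPM for numbers 1, 2 and 3 (adjusted p = 0.0136). PIK3CA averaged 20.4, 27.2 and 19.6 CPM (adjusted p = 0.0437), and was highest where PIK3R2 was lowest. PIK3CA did not pass with RLE scaling, nor without library 2 or 3 of either group. PIK3R2 did not pass without library 2 of either group. PIK3R1 (adjusted p = 0.0937), AKT1 (0.219), PIK3IP1 (0.276), AKT2 (0.550) and PIK3CB (0.763) did not pass. Without control library 2 only PIK3R3 passed (1 of 8), where 29.9% of all genes did. PIK3R3 was called both between groups and between numbers, and PIK3CA and PIK3R2 between numbers but not between groups.

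The genes whose pattern over the 6 libraries was most like that of PIK3IP1 were BMF, CFB, PCDHGB7, PCDHGA10 and CYTH4. Likeness is the root mean square difference of log2 CPM after centring each gene on its mean, over the 10694 other genes that averaged 5 CPM or more. It was 0.369 for BMF, 0.370 for CFB, 0.395 for PCDHGB7, 0.423 for PCDHGA10 and 0.468 for CYTH4. BMF, a pro-apoptotic BH3-only protein, had 44.4, 17.9 and 20.04 CPM in ACSS2 shRNA libraries 1, 2 and 3, against 7.005, 2.57 and 5.55 CPM in control shRNA libraries 1, 2 and 3. Complement factor B (CFB) had 46.1, 31.4 and 33.6 CPM with ACSS2 shRNA, against 6.49, 7.01 and 9.82 CPM with control shRNA. In BMF, CFB, PCDHGB7, PCDHGA10 and CYTH4, as in PIK3IP1, all ACSS2 shRNA libraries were above all control libraries. Of all genes tested, 10.7% did the same. These genes were chosen by likeness over the same 6 libraries, so their separation follows from the choice and is no separate result. The protocadherin genes share exons with others of their cluster, so their counts are uncertain.

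Neither neighbour of PIK3IP1 on the chromosome passed the test. Of 16 nearest tested neighbours, 1 on each side of each member, 2 passed with the block, where 25.1% of all genes did. LIMK2, 1513 bases from PIK3IP1, had a log2 fold change of 0.11 (SE 0.14, edgeR adjusted p = 0.578 with the block). PATZ1, on its other side, had -0.25 (SE 0.12, adjusted p = 0.150). The deposited span of the PIK3IP1 row is 7.60 times that of RefSeq and overlaps PATZ1. PATZ1 averaged 23.8 CPM with ACSS2 shRNA and 28.3 CPM with control shRNA, in groups that overlapped. The part of its reads in the PIK3IP1 row was not tested. IFI30, beside PIK3R2, fell (-0.54, adjusted p = 0.00699) and CEP170B, beside AKT1, rose (0.40, adjusted p = 0.0180). Deposited spans of 6 of the 8 members overlap another gene of the table, and how reads were divided there is not known.

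Around the 8 members, 7 lists of pathway genes held 101 genes, of which 95 were tested. The lists were chosen with earlier results of these data known. Genes are named from each list by their smallest p with the block. Counts, medians and p-values of the lists are therefore descriptions and test nothing about the pathway. Without the block edgeR called 0 of the 95 at an adjusted p under 0.05, with 17 at an unadjusted p under 0.05, and DESeq2 without a block called 4 of the 101. Of all genes, edgeR called 0.0692% without the block, with 1820 at an unadjusted p under 0.05, and DESeq2 called 3.76%. With the block 38 were called, 23 higher and 15 lower, where 12.7% of all genes were called higher and 12.4% lower. Without number 1, 2 or 3 the block called 27, 18 and 29 of them, and 21.1%, 12.1% and 23.8% of all genes. The p-values that follow are from edgeR with the block, adjusted over all genes. In the edgeR fit without the block given above, no named gene passed.

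All 3 tested genes of the other class I subunits and adaptors fell, their median being -0.90 on the log2 scale, and PIK3R5 and PIK3R6 were too low to test. Besides PIK3CD these were PIK3AP1, the adaptor BCAP (-1.24, SE 0.27, adjusted p = 0.00604), and PIK3CG, the p110γ subunit driven by G protein-coupled receptors (-0.41, SE 0.14, adjusted p = 0.0447). PIK3AP1 had 1.22, 1.51 and 2.36 CPM in ACSS2 shRNA libraries 1, 2 and 3, against 3.36, 4.73 and 3.81 CPM in control shRNA libraries 1, 2 and 3, a low level without overlap. Of 4 tested class II and III genes, which make other phosphoinositides, PIK3C2A (0.68, adjusted p = 0.00245) and PIK3C2B (0.52, adjusted p = 0.0429) rose, and PIK3C3 (0.06, adjusted p = 0.771) and PIK3R4 (-0.08, adjusted p = 0.683) did not pass. The median of that list was 0.29.

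Of 8 tested genes of AKT activation, 1 rose, 1 fell and 6 did not pass, with a median of -0.09. RICTOR, the scaffold of mTORC2 that phosphorylates AKT, had 46.4, 55.2 and 51.7 CPM in ACSS2 shRNA libraries 1, 2 and 3, against 20.9, 35.98 and 35.0 CPM in control shRNA libraries 1, 2 and 3. It rose 1.71-fold (adjusted p = 0.00166) without overlap. MAPKAP1, another mTORC2 subunit, fell (-0.36, adjusted p = 0.0335). PDPK1, the kinase PDK1 that also phosphorylates AKT, had a log2 fold change of -0.19 (adjusted p = 0.269).

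Lipid phosphatases and other brakes on AKT moved in both directions, with 3 of 14 higher, 3 lower, 8 that did not pass and a median of 0.15. TRIB2, a pseudokinase that binds AKT, had 58.2, 62.8 and 48.7 CPM in ACSS2 shRNA libraries 1, 2 and 3, against 37.8, 20.9 and 25.8 CPM in control shRNA libraries 1, 2 and 3, and rose 2.05-fold (adjusted p = 0.000842). TRIB1, of the same family, rose 1.97-fold (adjusted p = 0.000334), with groups that overlapped. INPPL1, the phosphatase SHIP2 that removes a phosphate from PIP3, fell (-0.54, adjusted p = 0.00815), as did PHLPP1, a phosphatase of AKT itself (-0.52, adjusted p = 0.00935). The members of this list that rose include TRIB2, which in melanoma and other cells has been tied to higher AKT activity, so the list's name does not cover all that its genes are known to do.

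Upstream receptors and adaptors were split evenly, with 4 of 24 higher, 4 lower, 16 that did not pass and a median of -0.02. RRAS, a small GTPase that can bind p110, fell by 1.00 on the log2 scale (adjusted p = 0.000403), and GAB2, a docking protein for p85, by 0.64 (adjusted p = 0.00243). IGF1R, the IGF-1 receptor, had 113, 91.5 and 88.8 CPM in ACSS2 shRNA libraries 1, 2 and 3, against 76.3, 69.9 and 70.9 CPM in control shRNA libraries 1, 2 and 3, and rose by 0.43 (adjusted p = 0.0143). GAB1, the paralog of GAB2, rose by 0.53 (adjusted p = 0.0161), opposite to GAB2.

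Among AKT substrates and mTORC1 genes 6 of 23 rose, 2 fell and 15 did not pass, with a median of 0.07. The cell cycle inhibitor CDKN1B (p27) had 44.5, 33.2 and 41.4 CPM in ACSS2 shRNA libraries 1, 2 and 3, against 23.8, 18.7 and 29.8 CPM in control shRNA libraries 1, 2 and 3, and rose 1.66-fold (adjusted p = 0.00174). CDKN1A (p21) rose 1.62-fold (adjusted p = 0.00362), and neither gene's groups overlapped. FOXO4 (0.56, adjusted p = 0.00738) and TSC2, a brake on mTORC1 (0.43, adjusted p = 0.0184), rose as well.

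FOXO target genes had 7 of 19 higher, 2 lower and 10 that did not pass, and a median of 0.35, the highest of the 7 lists. SOD2, the mitochondrial superoxide dismutase, had 472, 481 and 451 CPM in ACSS2 shRNA libraries 1, 2 and 3, against 198, 247 and 217 CPM in control shRNA libraries 1, 2 and 3, a 2.13-fold rise (adjusted p = 0.000127). BBC3, the pro-apoptotic protein PUMA, rose 2.22-fold (adjusted p = 0.000190) and BCL6, a transcriptional repressor, 1.70-fold (adjusted p = 0.000688). KLF2, a zinc-finger transcription factor, fell (-0.67, adjusted p = 0.00140). The groups of BCL6 and KLF2 overlapped. Of the genes named from the lists above that passed with the block, those of PIK3CG, PIK3C2A, PHLPP1, RRAS, GAB2 and TSC2 overlapped as well. Each of the FOXO targets also answers to other factors, so the list does not measure FOXO activity.

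**Figure D4:**
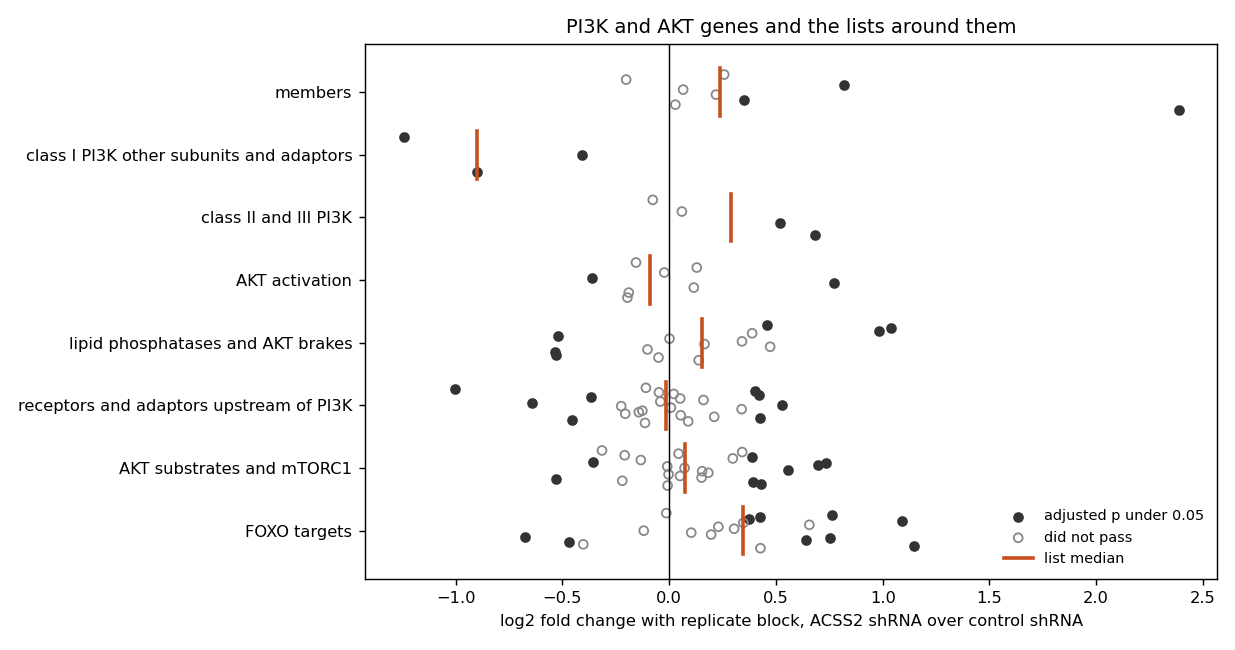
Log2 fold change with the replicate block, ACSS2 shRNA over control shRNA, of the 8 genes (members) and of the tested genes in the 7 pathway lists; filled points had an adjusted p under 0.05, open points did not, and orange bars are list medians. All 3 tested genes of the other class I subunits lay below 0, and the FOXO targets had the highest median of the 7 lists, 0.35.

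The hexamer TGGGTC, a word chosen for its frequency in these data, was looked for in the longest annotated 3′ UTR of each gene (GENCODE v29, GRCh38). None of the 8 members held it (0 of 8), against 29.1% of all tested genes with a 3′ UTR (3691 of 12668). Of the genes that fell with the block 44.2% held it, and of those that rose 26.5%. Because the word was chosen on these data, these shares are a description and test nothing. UTR length was not taken into account. PIK3CD held 2 copies, and PIK3CG held 0. Because PIK3CD is the catalytic subunit that fell most with the block, its 2 sites are shown on the plus strand, 5′ to 3′, with the word in capitals, the upper at chr1:9727391-9727410 and the lower at chr1:9727555-9727574.
PIK3CD site 1: gactgccTGGGTCctggcgc
PIK3CD site 2: tttcaagTGGGTCttgggta
With the word and the 8 genes both chosen on these data, no link between the word and a change is read from these counts and shares.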

How the data were processed

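The 6 libraries hold oligo(dT)-enriched RNA that BGI sequenced on DNBSEQ, per the labels' protocols. HISAT, Bowtie2 and RSEM are named, without versions or roles, in the submitters' processing notes. The sources used here do not give the annotation or the use of strand in counting, and chromosome accessions in the file are those of GRCh38. The authors deposited expected counts (estimated reads per gene) and TPM, per the file headers. The authors' own DESeq2 comparison, per the file headers, was deposited as p-value, q-value and log2 fold change, and only the last is quoted. FPKM columns were not used.

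From 17721 genes, 565 lines of spilled annotation text were left out and 26 symbols turned into dates were restored by ID. RefSeq's gene table held 17479 of the IDs. Expected counts, of which 10.47% to 13.01% per library were not whole, were rounded. Totals were 15048275 to 18608104 per library, which sets the counting error, and the 8 members had 34 to 10482 counts per library. Groups were compared in edgeR 4.0.16 (R 4.3.3) by quasi-likelihood F test after TMM scaling and filterByExpr (minimum count 10, minimum total 15), fitted on all 13003 genes left, with Benjamini-Hochberg adjustment and a threshold of 0.05. Standard errors were taken as the size of a log2 fold change over the root of its F value. The test was run without a replicate term and with the replicate number as a block. Both were also run on simulated counts in which 200 genes were changed, and the outcome of that check is not given here.

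The labels give a batch tag of Rep1, Rep2 or Rep3 in both groups. Deviations from the group means correlated by 0.717, 0.494 and 0.740 between libraries of the same number, against a minimum of 0.1. On that rule the numbers pair the libraries. Correlations between other libraries were at most -0.01. That is partly built in, since deviations cancel out within each group, and it is no separate support. These correlations are across genes, which are not independent. The biological coefficient of variation was 26.6% without the block and 11.8% with it. The effect of the replicate number was tested with the F test of its terms in the block fit. Shares and level order use the TPM of the authors, with no test.

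Alternatives were DESeq2 1.42.0, limma 3.58.1 on log2(TPM + 1) and log2(TPM + 0.1), other scalings, no low-count filter and leaving out libraries. The members, the 7 lists and the rules for named genes were chosen with earlier results of these data known. The rule names the 8 members and ACSS2, up to 4 members of each list with the smallest p with the block, the 5 genes most like PIK3IP1 and the nearest tested genes on each side of a member. PIK3C3, PIK3R4 and PDPK1 come from that rule although they did not pass, and 1 further gene that it names is not reported here. Sites of TGGGTC were added after its counts were seen.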

Additional observations from a re-analysis of the deposited data

How the results depend on the processing

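The log2 fold change of PIK3IP1 missed the threshold without the block (2.35, edgeR adjusted p = 0.0630) and was positive under all 19 alternatives. It passed with the replicate block (2.39), DESeq2 (2.32), DESeq2 with the block (2.38), no low-count filter (2.32), no filter with the block (2.36), limma on log2(TPM + 1) without and with the block (2.10 and 2.10) and limma on log2(TPM + 0.1) (2.48). With the block and number 1, 2 or 3 left out it passed at 2.51, 2.05 and 2.58, and over all left-out libraries it lay between 2.04 and 2.58. PIK3CB passed with the replicate block (0.35) and with limma and the block (0.43). PIK3R3 passed with the replicate block (0.82), DESeq2 with the block (0.78), no filter with the block (0.79), limma with the block (0.65), and with the block without number 2 (0.85) or 3 (0.92). AKT2 passed only with limma and the block (0.36), and lay between 0.09 and 0.34 with libraries left out. PIK3CA changed sign with libraries left out (-0.15 to 0.17), reaching -0.15 without ACSS2 shRNA library 2, -0.06 without control library 1, -0.05 without control library 3 and -0.0225 without number 1 with the block. PIK3R2 did so too (-0.14 to 0.26), with -0.09 without ACSS2 shRNA library 1 and -0.14 without control library 2. PIK3R1 (0.08 to 0.41) and AKT1 (-0.37 to -0.02) missed the threshold under all 19 alternatives, without a change of sign. Pairing also changed the counts of calls. Members called were 3 with the replicate block, 1 with DESeq2, 2 with DESeq2 and the block, 1 without the filter, 2 without it and with the block, 1 with limma at either pseudocount, 4 with limma and the block, and 0 to 2 with libraries left out (1, 2 and 2 with the block). Pathway genes called were 38 with the replicate block, 4 with DESeq2, 31 with DESeq2 and the block, 1 without the filter, 38 without it and with the block, 35 with limma and the block, and 0 to 29 with libraries left out (27, 18 and 29 with the block). Of all genes, 25.1% were called with the replicate block, 3.76% with DESeq2 and 19.4% with DESeq2 and the block. The share was 0.231% without the filter and 20.7% without it and with the block. With limma it was 0.0923% at either pseudocount and 25.9% with the block. With libraries left out it was at most 0.0455% without the block, and 21.1%, 12.1% and 23.8% with it. Members that differed between replicate numbers were 1 to 4 with a library left out, the lowest without control library 2, and 2 with RLE scaling. The shares of PIK3CD, PIK3CB and PIK3R2 moved by less than 1 SD under all 7 alternatives. The causes of these shifts were not tested. The order of levels was not rerun on FPKM. Depth limits PIK3IP1 and PIK3R3 most, with counts as low as 34 and 67 in a control library.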
